A study of Mus musculus with 4 samples.

Results

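Genes of synaptic vesicle release and recycling were followed in the globus pallidus of mice that had received cocaine and in mice that had received saline. The set held 37 genes, chosen by name for their known function, with earlier results of these data known. A gene was taken as measured where a spot on the array carried exactly 1 gene symbol and that symbol was the gene's own, and all such spots of a gene were averaged. By this rule 36 of the 37 genes were measured, among 19087 genes with 1 symbol, and Sv2c was not analysed here. The 36 genes had 83 spots, and 28 of them had more than 1.

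The tissue came from male C57BL6 mice put through conditioned place preference, a test of how strongly an animal comes to prefer the compartment paired with a drug. Cocaine mice were given 15 mg/kg on days 2, 3 and 4 and scored low for place preference, and saline mice were given saline on the same days, so a low score came with the drug in every case and the pair cannot be told apart. The labels give no age and no genotype beyond the strain. Each of 4 2-colour arrays set amplified RNA of 1 cocaine mouse against that of 1 saline mouse. The cocaine RNA carried Cy5 on arrays 1 and 3, and the dyes were swapped on arrays 2 and 4.

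A value below is a log2 ratio, likely of cocaine over saline. Columns of opposite dye orientation correlated between -0.96 and -0.83, the pattern of ratios already turned to 1 treatment direction with the dye bias left in. The order in which the study's text names the treatments makes cocaine the likely numerator, and every "higher" and "lower" below reverses if it was saline. The dye bias was removed by a smooth curve, which ties the values of a gene together: the sum of its values on arrays 1 and 3 nearly equals that on arrays 2 and 4, so a gene that is low on array 1 tends to be high on array 3. All 14 measured markers of pallidal neurons were above background, and so were the 36 vesicle genes. The same held for 14071 of the 19087 genes and for every measured thalamic, astrocyte, oligodendrocyte, microglia and endothelial marker. It therefore does not single out pallidal tissue. In dissected tissue, fewer cells of a type and less RNA per cell cannot be told apart.

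Neurons store transmitter in vesicles that fuse with the terminal membrane when calcium enters. SNARE proteins on both membranes zip together to drive fusion, synaptotagmins sense the calcium, and Rab3, RIM and Munc13 proteins bring vesicles to the active zone and make them ready. NSF and the SNAPs then take the SNARE complexes apart, and dynamin, amphiphysin, synaptojanin and endophilin retrieve the membrane. Within the globus pallidus such transcripts would come mainly from the local GABAergic neurons and other resident neurons. The RNA of striatal and subthalamic input neurons lies mostly in their distant cell bodies. Which cells gave the vesicle RNA of this dissected tissue was not tested, and markers of striatal projection neurons were also above background (11 of 12 measured).

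For no vesicle gene did the difference between cocaine and saline mice pass the test against the spread between arrays. With limma, 0 of the 36 genes had an adjusted p under 0.05, and 0% of the 30452 features tested had one. The mean log2 ratio lay within 0.1 of 0 for 27 of the 36 genes, and the set ran from -0.16 for Nsf and Rab3b to 0.27 for Sv2b, a 1.21-fold difference. Means below 0 were found for 22 of the 36 genes (61.1%), against 52% of all genes. The median of the set was -0.019, against -0.0028 for all genes. Without array 1 there were 16 means below 0 and a median of 0.013, and without array 4 there were 15 and a median of 0.040. Without array 3 there were 27 and a median of -0.087. Rab3b alone, 1 of the 36 genes, had an unadjusted p under 0.05, on the lower side. Among all genes 1.52% passed that limit and 0.671% passed it on the lower side. The same sign on 4 arrays was found for 5 of the 36 genes (13.9%), against 14.8% of all genes. These 5 were Syt11, Rab3b, Rph3a, Rims2 and Unc13b.

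**Figure D1:**
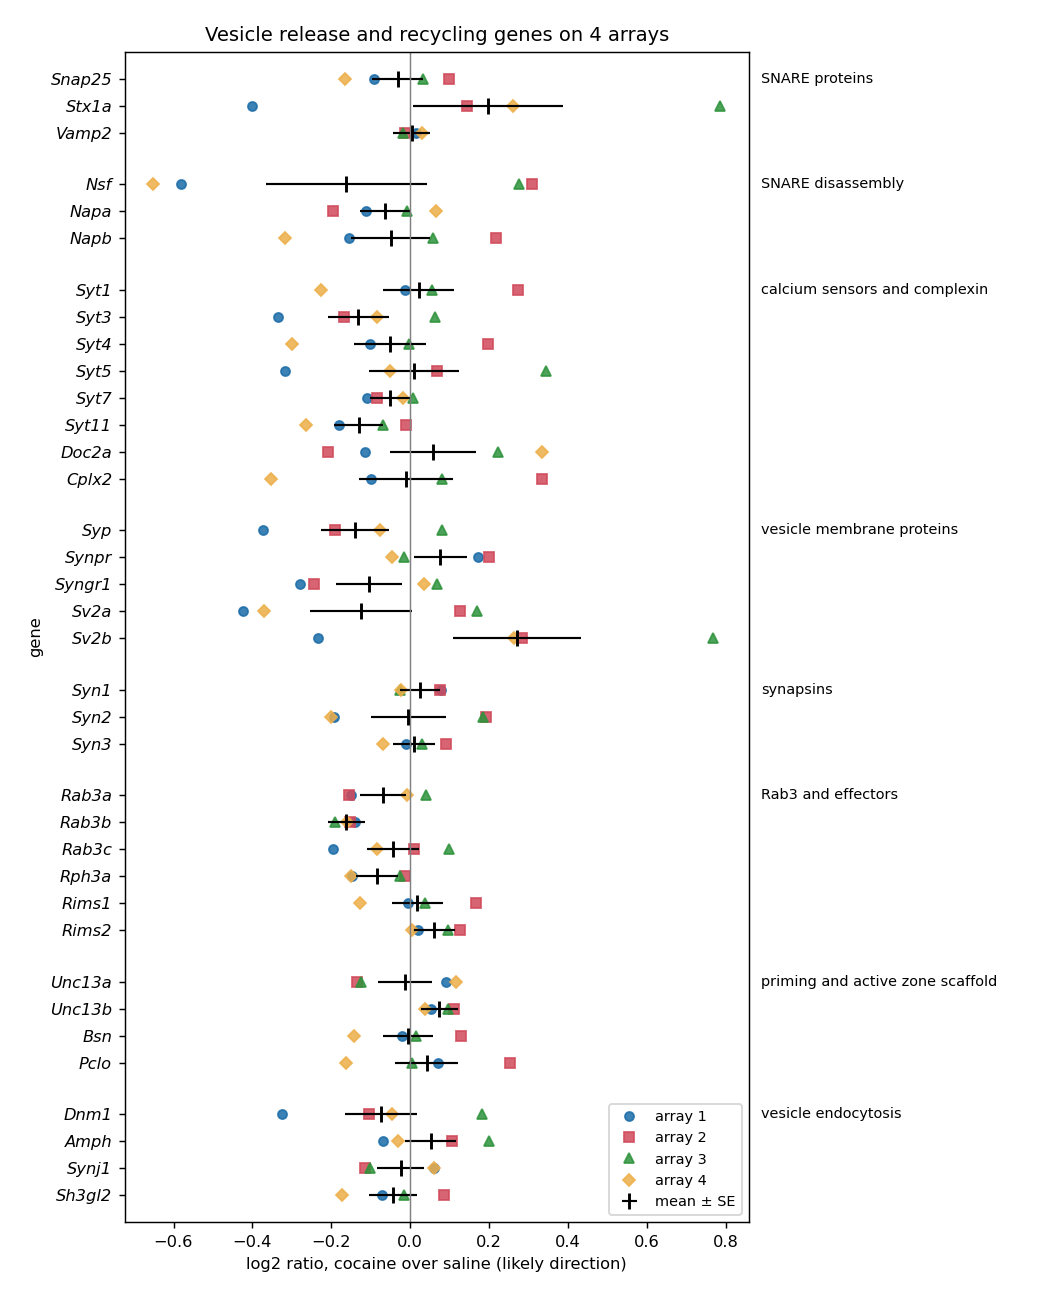
Log2 ratio (x axis) of the 36 measured genes (y axis), grouped by role. Each array has 1 coloured marker, and a black bar gives the mean with its moderated SE from limma. Rab3b is the gene whose 4 markers all lie close together below 0, while Stx1a, Nsf and Sv2b spread over more than 0.9.

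The SNARE proteins of the fusion complex split by gene. Vamp2, the vesicle SNARE synaptobrevin, was the steadiest of them, at 0.014, -0.013, -0.019 and 0.031 on arrays 1 to 4. Its mean was 0.0033 (SE 0.046, n = 4 arrays), and its 3 spots had means between -0.033 and 0.023. Every SE given is the moderated one of limma, which draws a gene's variance toward a value common to all genes. Snap25, which lends a pair of helices to the complex, stood at -0.092, 0.10, 0.033 and -0.17, with a mean of -0.032 (SE 0.064). Stx1a, a plasma membrane syntaxin read by 1 spot, was far less even, at -0.40, 0.14, 0.79 and 0.26. It was low on array 1 and high on array 3, and its mean of 0.20 (SE 0.19) had a 95% interval from -0.29 to 0.68. Its SE was larger than that of 99.7% of genes, and without array 3 the mean turned to -0.14.

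The machinery that takes SNARE complexes apart had 3 means below 0 and, for Nsf, the widest SE of the set. Nsf, the ATPase of this step, stood at -0.58 on array 1 and -0.65 on array 4 but at 0.31 on array 2 and 0.28 on array 3. Both of its spots did the same, one at -0.54, 0.49, 0.34 and -0.77 and the other at -0.62, 0.13, 0.21 and -0.54. The mean of -0.16 (SE 0.20) was thus smaller than the gap between arrays, and its 95% interval ran from -0.68 to 0.36. Napb, the brain form of the adaptor that loads NSF onto SNAREs, had the same order of arrays at smaller size, with -0.15, 0.22, 0.058 and -0.32 and a mean of -0.049 (SE 0.10). Napa, the widely expressed form, did not, at -0.11, -0.20, -0.0094 and 0.066 with a mean of -0.063 (SE 0.063).

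The calcium sensors had means between -0.13 and 0.059. Syt1, the main fast sensor of forebrain synapses, stood at -0.014, 0.27, 0.054 and -0.23 over its 5 spots, with a mean of 0.022 (SE 0.090). Syt4, a synaptotagmin known to be induced by activity, resembled it, at -0.10, 0.20, -0.0033 and -0.30. Syt11, which like Syt4 does not bind calcium in the usual way, was below 0 on all arrays, at -0.18, -0.011, -0.069 and -0.26, with a mean of -0.13 (SE 0.063, unadjusted p = 0.088 with limma). Syt3 had a like mean, -0.13 (SE 0.078), but lay at 0.062 on array 3. The slow sensor Syt7 ranged from -0.11 to 0.0076 over arrays and Syt5 from -0.32 to 0.34, with means of -0.051 and 0.010. Doc2a, a high-affinity calcium sensor, was high on arrays 3 and 4 (0.22 and 0.33) and low on arrays 1 and 2 (-0.12 and -0.21).

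Cplx2, a complexin that holds the SNARE complex ready, showed how far spots of 1 gene can differ. Its mean was -0.0099 (SE 0.12), with 0.33 on array 2 and -0.35 on array 4. Of its 4 spots, spots 1 and 3 reached 0.59 and 0.51 on array 2 and -0.62 and -0.58 on array 4. Spot 2 stayed between -0.038 and 0.075 on all arrays. All 4 were above background. In all, 15 of the 28 genes with several spots had spot means on both sides of 0.

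Proteins of the vesicle membrane held the highest mean of the set and several of the lowest. Sv2b, a vesicle glycoprotein found mainly in glutamatergic neurons, stood at -0.23, 0.28, 0.77 and 0.26, with a mean of 0.27 (SE 0.16) and a 95% interval from -0.14 to 0.68. Spots 1 and 2 reached 1.10 and 1.08 on array 3, while spot 3 was not above background and lay between -0.092 and 0.12, so the averaged value understates the others. With spots above background alone the mean was 0.40 (unadjusted p = 0.079 with limma). Without array 3 the mean of all spots was -0.011 and without array 1 it was 0.51. Sv2a, the form present in most neurons, was instead low on arrays 1 and 4 as Nsf was, at -0.42, 0.13, 0.17 and -0.37, with a mean of -0.13 (SE 0.13). Syp, or synaptophysin, was at -0.37, -0.19, 0.080 and -0.076 (mean -0.14, SE 0.086). Syngr1, or synaptogyrin, resembled it at -0.28, -0.24, 0.067 and 0.036 (mean -0.10, SE 0.083). Synpr, or synaptoporin, ran the other way, with 0.17 and 0.20 on arrays 1 and 2 and values just below 0 on arrays 3 and 4.

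**Figure D2:**
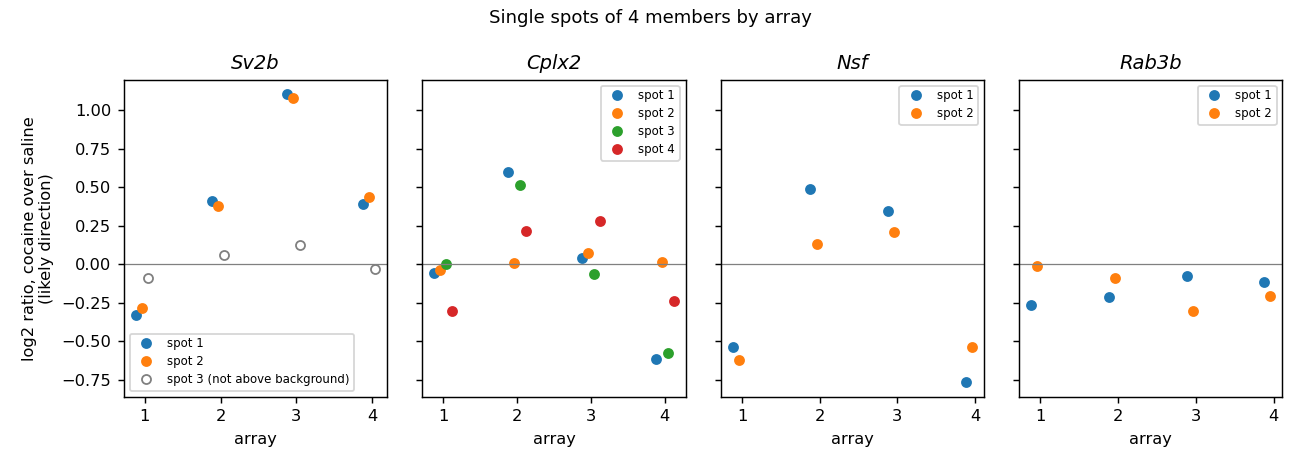
Log2 ratio (y axis) of single spots of Sv2b, Cplx2, Nsf and Rab3b on arrays 1 to 4 (x axis), with 1 colour per spot and an open marker for a spot not above background. Spots 1 and 2 of Sv2b overlap at 1.10 and 1.08 on array 3, and both spots of Nsf are low on arrays 1 and 4.

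The synapsins, which tether vesicles to each other in the reserve pool, had means of 0.026 for Syn1, -0.0048 for Syn2 and 0.0093 for Syn3. Syn2 was not flat on single arrays, at -0.19, 0.19, 0.18 and -0.20, the order seen for Nsf. Syn1 stayed between -0.026 and 0.077. Of the 6 spots of Syn3 only 3 were above background, and one of these stood at -0.27, 0.43, 0.13 and -0.58.

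Rab3b, a small GTPase of the vesicle surface, was the most even of the lower genes. It stood at -0.14, -0.15, -0.19 and -0.16 on arrays 1 to 4, with a mean of -0.16 (SE 0.046), a 95% interval from -0.28 to -0.044 and an unadjusted p of 0.016 with limma (adjusted p = 0.999). This is 1.12-fold. Its 2 spots were each below 0 on all arrays but were not alike, one at -0.27, -0.22, -0.080 and -0.12 and the other at -0.015, -0.092, -0.30 and -0.21. The deviations of the spots nearly cancelled in the average, which had an SE that only 4.77% of genes undercut. Without single arrays the mean stayed between -0.17 and -0.15. The unadjusted p with limma became 0.055 with spots above background alone, 0.11 with each array's median set to 0 and 0.15 with no normalization. Both spots were above background, so the mean was unchanged in the first of these. The same p was 0.014 with a wider curve (span 0.7), 0.016 with medians of spots and 0.017 with a robust prior. With no dye term it was 0.0015, too small because the smooth curve had already taken out the dye difference. Without arrays 1, 2, 3 and 4 it was 0.060, 0.042, 0.093 and 0.039. The related Rab3a, the most abundant brain form, had a mean of -0.069 (SE 0.059), and Rab3c had -0.043 (SE 0.066). Whether Rab3b differed from either was not tested.

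Effectors that Rab3 recruits were small in both directions. Rph3a, or rabphilin, stood at -0.15, -0.013, -0.027 and -0.15 (mean -0.085, SE 0.054). Of the RIM scaffolds that hold vesicles near calcium channels, Rims1 had a mean of 0.018 (SE 0.065) and Rims2 of 0.061 (SE 0.051). Rims2 was above 0 on all arrays, yet its 2 spots had means of -0.063 and 0.19. The priming factor Unc13b was also above 0 on all arrays, at 0.053, 0.11, 0.10 and 0.036, with a mean of 0.074 (SE 0.048). Its 3 spots had means of -0.028, 0.021 and 0.23, and the third alone was above 0 on all arrays. Unc13a, its counterpart at most central synapses, reversed between arrays, at 0.091, -0.13, -0.12 and 0.12, the opposite order to Nsf. The giant active zone scaffolds Bsn (bassoon) and Pclo (piccolo) were highest on array 2 (0.13 and 0.25) and lowest on array 4 (-0.14 and -0.16).

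Genes of membrane retrieval kept to within 0.074 of 0 on average. Dnm1, the GTPase that pinches off vesicles, stood at -0.32, -0.10, 0.18 and -0.048 (mean -0.074, SE 0.091). Amph, an adaptor that recruits dynamin, had a mean of 0.051 (SE 0.065), with its highest value, 0.20, on array 3. Synj1, the lipid phosphatase that strips clathrin coats, had a mean of -0.025 (SE 0.059), and Sh3gl2, or endophilin A1, had -0.044 (SE 0.062). Only 1 of the 3 spots of Sh3gl2 was above background, and it stood at -0.058, 0.32, 0.033 and -0.34.

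The sign of the ratio differed between arrays in all but 5 of the 36 genes. The share with the same sign on 4 arrays, 13.9%, was close to the 14.8% of all genes. The median of the 36 genes was below 0 on arrays 1 and 4 (-0.11 and -0.073) and above 0 on arrays 2 and 3 (0.088 and 0.047). Values below 0 were found for 28, 14, 11 and 26 genes on arrays 1 to 4. As shares these were 77.8%, 38.9%, 30.6% and 72.2%, against 53.0%, 53.9%, 47.2% and 46.7% of all genes. The SD over arrays exceeded the median of genes above background in 26 of the 36 genes. It exceeded 0.2 in 12, a count not made over all genes. The median SD was 0.126 in the set, against 0.105 among genes above background.

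**Figure D3:**
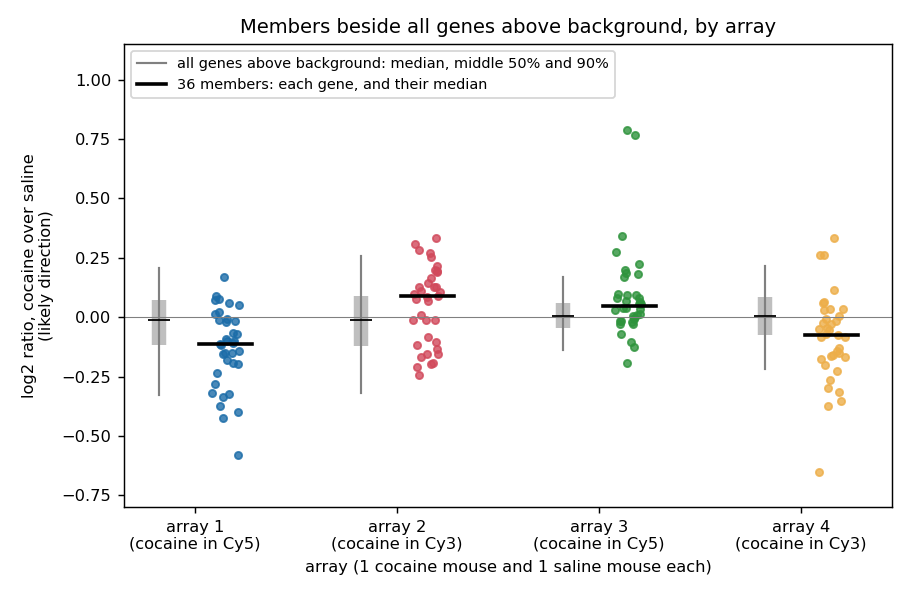
Log2 ratio (y axis) on each array (x axis), with the 36 genes as coloured points and their median as a black line, beside the median (dash), middle 50% (thick bar) and middle 90% (thin line) of the 14071 genes above background in grey. The genes' medians lie below 0 on arrays 1 and 4 (-0.11 and -0.073) and above 0 on arrays 2 and 3 (0.088 and 0.047).

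Arrays of the same dye orientation can be set against each other free of the dye. In each pair the array with the lower median of the set was taken first. The direction of the shares below therefore follows these same data. Array 1 was below array 3 in 29 of the 36 genes (80.6%, median difference -0.12), against 54.2% of genes above background. Array 4 was below array 2 in 24 (66.7%, median difference -0.12), against 46.2%. Both held for 20 genes (55.6%), against 23.0%. The pattern was not particular to the vesicle genes. Striatal projection neuron markers had 66.7%, 91.7% and 58.3% for these shares, in the same order. Pallidal neuron markers had 50%, 64.3% and 35.7%, and cortical glutamatergic markers had 77.8%, 22.2% and 0%. All 8 calcium sensors and complexin genes were lower on array 1 than on array 3. The largest gap was that of Stx1a, at -1.19 between arrays 1 and 3 and 0.12 between arrays 4 and 2, followed by Sv2b. Nsf was far apart in both, by -0.86 and -0.96. Each array holds its own cocaine mouse and its own saline mouse, so the part of either animal in these gaps cannot be told apart, and each orientation has only 2 arrays, so they were given no test.

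**Figure D4:**
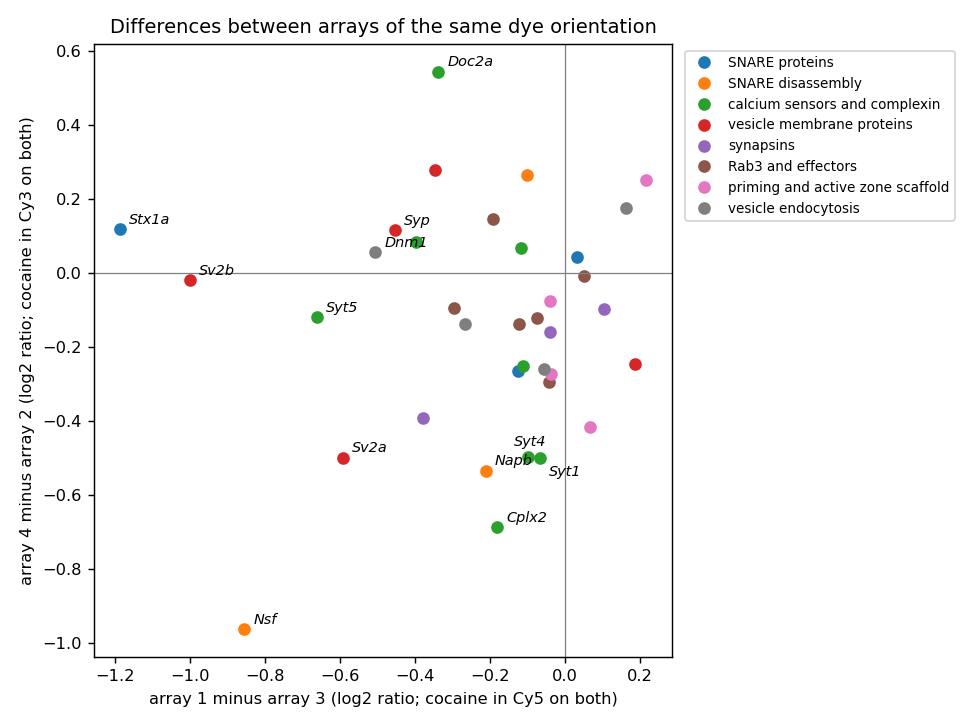
Difference in log2 ratio between array 1 and array 3 (x axis) and between array 4 and array 2 (y axis), with 1 point per gene coloured by role. The lower left part holds 20 of the 36 genes, with Nsf at its far corner and Stx1a and Sv2b far to the left along the 0 line.

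Markers of other neurons moved across the arrays as well. Cortical glutamatergic markers (9 of 10 measured, 7 above background) had medians of -0.20, 0.12, 0.22 and 0.16 on arrays 1 to 4. Neurod6 and Tbr1 of this list were not above background, and Tbr1 stood at -0.21, 0.16, 0.54 and 0.16. Slc17a7, the vesicular glutamate transporter of cortical neurons, stood at -0.27, 0.22, 0.92 and 0.41, close to Stx1a and to the 2 brighter spots of Sv2b. Neurod2 resembled Slc17a7, at -0.32, 0.13, 0.86 and 0.41. Emx1 (-0.20, -0.52, -0.066 and 0.27) and Cux2 (0.23, 0.12, -0.18 and -0.059) did not. Striatal projection neuron markers (12 of 14 measured, 11 above background) had medians of -0.059, 0.25, 0.15 and -0.12, the order of arrays seen for Nsf and Syn2. The part of either list in the vesicle gene values was not tested. Pallidal neuron markers had medians of -0.052, 0.054, 0.0099 and -0.084. Of the other lists, thalamic markers had medians from -0.0022 to 0.055, cholinergic markers from -0.21 to -0.0059, astrocyte markers from -0.11 to -0.014, oligodendrocyte markers from -0.11 to -0.037, microglia markers from -0.097 to 0.050 and endothelial markers from -0.067 to 0.069.

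Other genes of release and recycling were also followed, 90 in 5 lists chosen by function, of which 85 were measured. With limma 0 of the 85 passed an adjusted p under 0.05 and 0 an unadjusted p under 0.05. Their median was -0.013, with 36 higher and 49 lower (57.6% lower, against 52% of all genes). Further SNAREs and their partners had 7 of 11 higher, further calcium sensors and complexins 9 of 17, and further Rab3, priming and scaffold genes 9 of 17. Further vesicle membrane genes had 10 of 15 lower and further endocytosis genes 19 of 25 lower, with medians of -0.050 and -0.041. The smallest p on the higher side were those of the clathrin adaptor subunit Ap2b1 at 0.15 (SE 0.063), Syt10 at 0.12 (SE 0.059) and Syt16 at 0.12 (SE 0.062). On the lower side they were those of Vamp1 at -0.15 (SE 0.068), the vesicular monoamine transporter Slc18a2 at -0.17 (SE 0.085) and the clathrin adaptor subunit Ap2s1 at -0.19 (SE 0.097). Hspa8, the chaperone that uncoats clathrin, was chosen after its values were seen. It stood at -0.67, 0.11, 0.31 and -0.46, low on arrays 1 and 4 as Nsf was. Across the 85 genes array 1 was below array 3 in 64.7% and array 4 below array 2 in 52.9%, and both held in 30.6%. Among genes above background these shares were 54.2%, 46.2% and 23.0%.

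Promoters are shown for Rab3b, the gene with the smallest p, and for Nsf and Stx1a, which had the widest SE. Each is the 250 bases before the RefSeq start on GRCm38.p6, 5′ to 3′ on the gene's strand, at chr4:108878820-108879069 (plus strand), chr11:103954057-103954306 (minus strand) and chr5:135023232-135023481 (plus strand). Capitals mark exact matches, on either strand, to 5 motifs: the cAMP response element TGACGTCA, its shorter form TGACG that lies within it, the TATA box TATAAA, the GC box GGGCGG and the E-box CACGTG.
Rab3b: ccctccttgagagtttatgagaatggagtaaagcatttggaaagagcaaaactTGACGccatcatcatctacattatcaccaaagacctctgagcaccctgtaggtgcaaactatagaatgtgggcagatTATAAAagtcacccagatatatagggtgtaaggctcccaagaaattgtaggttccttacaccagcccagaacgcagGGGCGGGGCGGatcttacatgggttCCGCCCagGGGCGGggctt
Nsf: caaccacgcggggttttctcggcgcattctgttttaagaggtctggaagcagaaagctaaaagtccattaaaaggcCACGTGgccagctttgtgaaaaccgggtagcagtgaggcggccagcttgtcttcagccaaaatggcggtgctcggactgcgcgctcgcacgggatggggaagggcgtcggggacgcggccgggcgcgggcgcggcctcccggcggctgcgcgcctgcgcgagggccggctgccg
Stx1a: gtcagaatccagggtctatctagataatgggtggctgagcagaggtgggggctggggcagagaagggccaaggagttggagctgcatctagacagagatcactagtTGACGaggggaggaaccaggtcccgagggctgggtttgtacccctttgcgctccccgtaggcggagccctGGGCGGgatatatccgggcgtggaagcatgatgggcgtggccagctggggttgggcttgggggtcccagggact

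The Rab3b window holds TGACG, the TATA box and 4 matches to the GC box. The Nsf window holds 1 E-box, and the Stx1a window holds TGACG and 1 GC box. RefSeq promoters were matched for 28 of the 36 genes (38 windows). The GC box lay in 19 of these windows (50%), against 32.7% of all 32851 promoter windows, and TGACG in 8 (21.1%), against 17.8%. The full cAMP response element was found in 2 windows (5.26%), those of Sh3gl2 and Syn1, against 1.55%. The TATA box lay in 3 (7.89%) against 12.4%, and the E-box in 4 (10.5%) against 6.02%. These shares describe letters in the windows and were not tested.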

How the data were processed

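Log2 ratios of 45220 spots on 4 arrays were used as the authors deposited them, and no other column was present. Per the labels' protocols, 75 ng of total RNA was amplified and labelled; Agilent Feature Extraction is named in the submitters' processing notes. Of 2960 values of array 3, 98.1% matched, within 2e-13, the log2 of 1 whole number over another, against 0.0676% after a small random shift; arrays 1, 2 and 4, deposited with medians of 9, 6 and 6 decimals (array 3, 15), gave at most 0.169% and were taken to be on the same scale. No centring or dye correction was visible on any array, and no background subtraction on array 3. Arrays 1, 2 and 4 had too few decimals to show whether background was subtracted. Where it was not, dim genes' ratios are understated. Arrays were taken as biological replicates, as each channel has its own animal code; their number limits the precision.

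Rows at 0 on all arrays (202) were left out. Each array was normalized by loess (span 0.3) on each spot's mean dye bias over the 4 arrays, in place of the usual loess on intensity, which needs values not used here. Spots with 1 symbol from the platform annotation (33653 probes; 56 had several symbols and 11511 none) were averaged per gene, and the others tested singly, giving 30452 features. The 36 symbols equalled those of RefSeq by Entrez identifier. A spot counted as above background if that mean dye bias was over 0.086 (the mode of dim spots plus 3 SDs), a stand-in for intensity; 14071 genes had such a spot. R 4.3.3 with limma 3.58.1 (lmFit and eBayes, terms for treatment and dye) gave p-values, adjusted by Benjamini-Hochberg over all features at 0.05. The fit was tested on simulated data with equal noise for every spot and differences larger than any mean of the 36 genes. It was not tested on differences as small as those found here.

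The members and lists were chosen with earlier results of these data known. All measured members are named, and of the 90 other pathway genes the 3 with the smallest p on each side and Hspa8. Of the 9 marker lists, only genes of the cortical list are named. Alternatives were median centring, no normalization, span 0.7, spots above background, medians of spots, no dye term, a robust prior, leaving out the 10% of features with the smallest spread, and leaving out each array.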

Additional observations from a re-analysis of the deposited data

How the results depend on the processing

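The count of 0 features past an adjusted p under 0.05 became 18 with median centring and 60 when the 10% of features of smallest spread were left out; no vesicle gene was among them, and in no alternative did one have an adjusted p below 0.349. The 529 features with an unadjusted p under 0.05 became 335 with spots above background alone, 1900 with no dye term, 1049 when the 10% of features of smallest spread were left out, and 295 to 2668 without single arrays. The 1 vesicle gene of that kind, Rab3b, gave way to Sv2b with median centring (unadjusted p = 0.015 with limma). With the 10% of features of smallest spread left out, Rab3b was not tested and Stx1a (0.030) and Sv2b (0.0030) had such a p. The count became 0 with no normalization and with spots above background alone (Rab3b, unadjusted p = 0.055 there with limma) and 3 with no dye term, and 1 to 3 without single arrays. Without array 1 these were Stx1a and Sv2b, and without array 3 they were Syt3, Syp and Dnm1. The p-values with no dye term are too small, because the smooth curve had already taken out the dye difference. The 22 means below 0 (15 to 27 without single arrays) and both counts of array against array stayed within 1.5 times in the alternatives run. The set's median of -0.019 became 0.013, -0.033, -0.087 and 0.040 without arrays 1, 2, 3 and 4. The sign of Vamp2 turned with median centring (-0.0097), no normalization (-0.0085) and span 0.7 (-0.0031), that of Syn2 with medians of spots (0.0063) and that of Syn3 with spots above background alone (-0.015).

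Without single arrays 26 of 36 genes changed sign in at least 1 fit, and 10 kept it in all alternatives. The ranges of these 26 means follow. They were Snap25 from -0.088 to 0.060, Stx1a from -0.14 to 0.48, Vamp2 from -0.018 to 0.023, Nsf from -0.41 to 0.088, Napa from -0.12 to 0.030, Napb from -0.16 to 0.086 and Syt1 from -0.081 to 0.15. Further ranges were Syt4 from -0.16 to 0.068, Syt5 from -0.17 to 0.16, Doc2a from -0.079 to 0.18, Cplx2 from -0.15 to 0.17, Sv2a from -0.29 to 0.021, Sv2b from -0.011 to 0.51 and Syn1 from -0.00019 to 0.074. Further ranges were Syn2 from -0.11 to 0.10, Syn3 from -0.029 to 0.038, Rab3a from -0.17 to 0.028, Rab3c from -0.11 to 0.028, Rims1 from -0.034 to 0.10, Unc13a from -0.083 to 0.051 and Bsn from -0.055 to 0.073. Further ranges were Pclo from -0.058 to 0.14, Dnm1 from -0.21 to 0.054, Amph from -0.073 to 0.16, Synj1 from -0.074 to 0.024 and Sh3gl2 from -0.11 to 0.018. The causes were not tested. No paired analysis was possible because all 4 arrays form 1 group and each already sets a cocaine mouse against a saline mouse. With 4 arrays, 95% intervals span at least 0.2 on the log2 scale. Where background was not subtracted, dim spots hold less of a difference.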
